A study of Mus musculus with 6 samples.

Results

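Slow-fibre muscle transcripts were followed in brown adipose tissue, as the rows of 9 genes named for this purpose: Myh7, Myl2, Myl3, Tnni1, Tnnt1, Tnnc1, Ankrd2, Myoz2 and Mb. All 9 were found, out of 54385 rows of the count table. They had been chosen with their fall in the knockout already known, so the genotype difference of these 9 genes is described here and not tested. The tissue was interscapular brown fat, the heat-producing upper-back depot, taken from C57BL/6N mice at an age of 20 weeks (interscapular per the sample labels, inguinal per the series' design text). Wild-type mice (wt/wt) were compared with the ADCY3∆AT line, a knockout of the cold-induced, truncated AT form of adenylyl cyclase 3. Both groups went from chow to high-fat feeding at the age of 8 weeks, stayed on it for 12 weeks, and spent 24 h at 4 °C, so every library comes from cold-exposed mice on a high-fat diet. There were 3 libraries a group, and the labels do not say that each came from a separate animal. Whether the AT form was removed in every tissue or only in fat is not stated in the sources used here.

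Skeletal muscle is built of slow and fast fibres that use different versions of the same sarcomere proteins. Slow fibres contract with the slow myosin heavy chain (Myh7) and its light chains, carry slow troponins, hold many mitochondria and store oxygen on myoglobin (Mb). Several slow isoforms are shared with the heart ventricle. Brown adipocytes are not muscle, but they arise from precursors related to those of muscle, and Mb is also known to be made in brown fat.

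Library totals ranged from 44826777 to 54933588 estimated counts. Brown adipocyte markers were abundant in every library, with a summed level of 20440 to 20510 CPM, which are counts scaled to the TMM-normalised library size, over 13 genes in wild type, against 19400 to 19880 CPM in the knockout. The targeted gene Adcy3 ranged from 651.9 to 727.8 CPM in wild type, above its range of 341.9 to 505.6 CPM in the knockout. A row with no entry in the annotation, whose identifier ends in the same digits, had 477.4 to 628.6 CPM in wild type while all 3 knockout libraries list it at 0. Over all 18114 genes tested, edgeR called 1 gene lower, that row, and 0 higher at an adjusted p of 0.05, with 1047 lower and 948 higher at an unadjusted p under 0.05. DESeq2 called 143 lower and 89 higher of 19841.

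Of the 9 genes, 8 were scarce in wild type and had 0 to 42 counts a library in ADCY3∆AT, and Mb was abundant in both. Wherever 3 values are given for a group, they are those of replicates 1, 2 and 3 in that order. The 8 scarce genes together had 19.7, 13.9 and 54.3 CPM in wild-type replicates 1, 2 and 3, and 0.437, 1.91 and 1.36 CPM in ADCY3∆AT replicates 1, 2 and 3. In estimated counts these sums were 1081.2, 610.5 and 2483 against 20.0, 94.3 and 63.0. For each of the 8, the highest ADCY3∆AT library was lower than the lowest wild-type one, as it was for 8.83% of all genes tested. Mb alone had 404, 354 and 424 CPM against 223, 363 and 359 CPM, and its groups overlapped. The median log2 difference of the 9 genes, ADCY3∆AT minus wild type on the scale of log2(mean CPM + 0.05), was -3.52, beside a median of 0.0035 over all 18114 genes tested. Wild-type replicate 3 weighed most on it, and without that library the median was -2.74 and the 8 scarce genes lay between -4.18 (Myh7) and -1.12 (Tnnc1). In whole-tissue RNA, fewer cells of a type and less RNA per cell cannot be told apart.

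**Figure D1:**
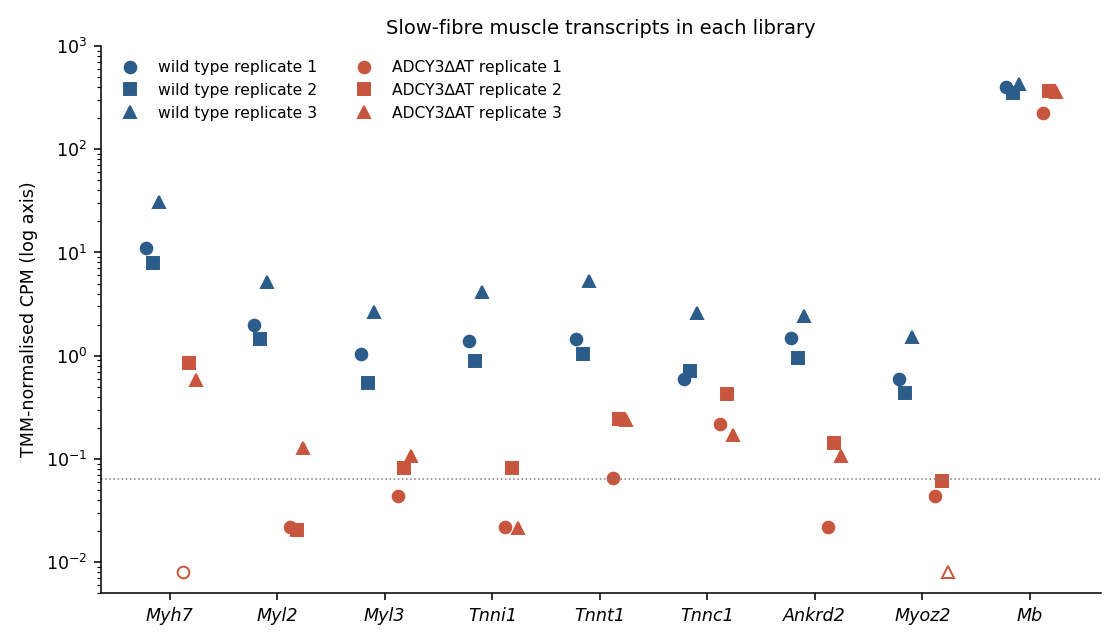
Level of each slow-fibre transcript in each library, as TMM-normalised CPM on a log axis, with wild type in blue and ADCY3∆AT in red and 1 marker shape per replicate number. Open markers are libraries at 0, drawn below the scale of the others, and the dotted line is the mean level of 3 counts. Mb lies at 223 to 424 CPM in all 6 libraries, and the other 8 genes separate into 2 groups by genotype.

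Compared per length of the principal transcript, Mb stood at 357 ± 32.5 CPM per kb in wild type (SD, n = 3), which was 110-fold above the next gene, Myl2, at 3.23 ± 2.29. Below it followed Myh7 at 2.65 ± 1.97, Tnnt1 at 2.51 ± 2.26, Tnni1 at 1.86 ± 1.52, Tnnc1 at 1.80 ± 1.55, Myl3 at 1.51 ± 1.19, Ankrd2 at 1.48 ± 0.678 and Myoz2 at 0.718 ± 0.491 CPM per kb. From Myl2 downwards each pair of neighbours had overlapping ranges. Taken within libraries, Myl2 was above Myh7, Tnnt1 above Tnni1 and Ankrd2 above Myoz2 in 3 of 3 wild-type libraries, the last by 2.06-fold, while the other neighbours changed places between libraries. The libraries varied together. All 9 genes were highest in wild-type replicate 3, and 8 of 9 were lowest in replicate 2, the exception being Tnnc1.

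To show what the start sites of these genes hold, 4 promoter windows from RefSeq (GRCm38.p6) are given, each of 250 bases before to 50 after the start. Myh7 and Tnnt1 stand for the myosin and troponin genes among the 8 scarce ones, Myoz2 for the only window of the set with a MEF2 match, and Mb for the gene that remained abundant. The windows are chr14:54994577-54994876 (minus strand), chr7:4515926-4516225 (minus), chr3:123034938-123035237 (minus) and chr15:77022738-77023037 (minus), written 5′ to 3′ on the gene's strand. Capitals mark E-boxes (CANNTG, the core bound by myogenic and many other helix-loop-helix factors) and, in Myoz2, also the MEF2 match that lies immediately upstream of the first E-box.
Myh7: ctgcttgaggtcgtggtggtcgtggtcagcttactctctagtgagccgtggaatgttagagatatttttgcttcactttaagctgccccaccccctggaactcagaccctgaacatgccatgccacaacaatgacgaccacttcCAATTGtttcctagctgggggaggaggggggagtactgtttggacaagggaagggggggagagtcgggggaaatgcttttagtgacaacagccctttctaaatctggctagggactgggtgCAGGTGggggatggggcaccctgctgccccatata
Tnnt1: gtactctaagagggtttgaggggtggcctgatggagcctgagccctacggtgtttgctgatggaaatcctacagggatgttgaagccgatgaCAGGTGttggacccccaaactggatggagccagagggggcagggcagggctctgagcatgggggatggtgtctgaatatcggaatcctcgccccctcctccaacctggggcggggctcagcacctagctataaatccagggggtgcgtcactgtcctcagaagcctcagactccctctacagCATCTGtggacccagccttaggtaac
Myoz2: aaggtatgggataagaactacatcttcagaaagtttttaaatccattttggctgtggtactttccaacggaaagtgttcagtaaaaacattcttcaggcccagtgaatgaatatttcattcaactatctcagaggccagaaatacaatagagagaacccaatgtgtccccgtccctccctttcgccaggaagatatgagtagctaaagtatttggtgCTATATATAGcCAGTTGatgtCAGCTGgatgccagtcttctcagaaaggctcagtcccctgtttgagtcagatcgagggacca
Mb: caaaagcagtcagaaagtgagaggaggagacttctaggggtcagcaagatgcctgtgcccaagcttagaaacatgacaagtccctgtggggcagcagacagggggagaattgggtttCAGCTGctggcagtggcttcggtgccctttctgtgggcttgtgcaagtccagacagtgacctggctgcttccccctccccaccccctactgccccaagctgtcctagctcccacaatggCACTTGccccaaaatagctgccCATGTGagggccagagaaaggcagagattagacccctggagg
A window was used where its start lay within 50 bases of the start of the GENCODE M21 principal transcript, which left 7 of the 9 genes, without Myl2 and Tnni1. On both strands, an E-box was present in 7 of 7 windows, against 72.3% of 32817 promoter windows of the same length. The MCAT element (CATTCC), a muscle-associated TEAD site, was present in 3 of 7 (14.7% of all windows), and TATAAA in 2 of 7 (13.6%). A MEF2 site was present in 1 of 7 (3.19%) and a CArG box, the site of serum response factor, in 1 of 7 (1.63%). Mb held E-boxes and none of the other motifs in this window. These are matches of letters only.

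The motor of the slow fibre is encoded by Myh7, the slow and cardiac beta myosin heavy chain (ENSMUSG00000053093, chromosome 14, 54970684 to 54994626, minus strand, GRCm38). It measured 11.2, 7.83 and 30.5 CPM across wild type, against 0, 0.853 and 0.581 CPM in the knockout. The 0 in ADCY3∆AT replicate 1 allows up to 3 counts, or 0.0656 CPM. Over the pooled counts, 2353 against 69, the ADCY3∆AT level was 3.00% of wild type, with a 95% exact interval of 2.33% to 3.81%. This interval, like those below, covers counting error only. Of the 31-base words of its principal transcript, 31.9% occur in other genes, nearly all of them in the cardiac myosin Myh6. Antisense genes including Mhrt overlap the locus by their start and end coordinates. Whether their exons overlap was not examined, so their reads may be mixed with those of Myh7 where the counting did not use strand. Myh6 itself, 3756 bases away on the same strand, had at most 3.1 counts in any library. For the other 8 genes no 31-base word of the principal transcript occurs in another gene. Genes on the opposite strand also overlap Myl2 (Ccdc63), Myl3 (Pth1r), Tnnc1 (Nisch) and Mb (Apol6 and Gm49540) by these coordinates. For them too, overlap of exons was not examined.

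The light chains of this motor followed the same order of libraries in wild type. Myl2, the slow regulatory light chain (ENSMUSG00000013936, chromosome 5, 122100951 to 122113472, plus strand), measured 1.97, 1.45 and 5.21 CPM across wild type. In ADCY3∆AT it had 0.0219, 0.0203 and 0.129 CPM, which are 1, 1 and 6 counts. Its pooled level was 2.00% of wild type (0.856% to 3.97%). Myl3, the slow and ventricular essential light chain (ENSMUSG00000059741, chromosome 9, 110741861 to 110769798, plus strand), had 1.04, 0.545 and 2.67 CPM against 0.0437, 0.0813 and 0.108 CPM, or 2, 4 and 5 counts in ADCY3∆AT. That was 5.54% of wild type (2.72% to 10.1%).

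The troponins of slow fibres differed among themselves in how much remained. Tnni1, the inhibitory subunit (ENSMUSG00000026418, chromosome 1, 135779434 to 135810989, plus strand), measured 1.39, 0.886 and 4.13 CPM across wild type, against 1, 4 and 1 counts in ADCY3∆AT (0.0219, 0.0813 and 0.0215 CPM). Its pooled level was 2.02% of wild type (0.735% to 4.45%), and its log2 difference was -4.58, or -3.69 without wild-type replicate 3. Tnnt1, the tropomyosin-binding subunit (ENSMUSG00000064179, chromosome 7, 4504570 to 4516382, minus strand), had 1.44, 1.04 and 5.25 CPM against 0.0656, 0.244 and 0.237 CPM. It stood at 7.29% of wild type (4.70% to 10.9%). Its log2 difference was -3.50, and -2.48 without wild-type replicate 3.

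Tnnc1, the calcium-binding subunit shared by slow and cardiac muscle (ENSMUSG00000091898, chromosome 14, 31208312 to 31211729, plus strand), measured 0.601, 0.704 and 2.58 CPM across wild type, against 0.219, 0.427 and 0.172 CPM in the knockout. Its highest ADCY3∆AT library thus lay nearest to its lowest wild-type library among the 8 scarce genes. At 21.9% of wild type (15.1% to 31.1%) it had the largest remaining share of the 8 over pooled counts. Its log2 difference was -2.06, and -1.12 without wild-type replicate 3. In ADCY3∆AT replicate 1, where Myh7 had 0 counts, Tnnc1 had 10, and whether any of its counts came from Nisch on the other strand was not tested.

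The cardiac neighbours of the troponin genes gave almost no counts. Tnni3, the cardiac inhibitory subunit, lies 1922 bases from Tnnt1 on the same strand and had 2.0 to 7.0 counts a library. Tnnt2, the cardiac tropomyosin-binding subunit, lies 25364 bases from Tnni1 and had 0 to 3.0 counts. Over the list of 10 cardiac markers the summed level was 66.2 to 71.1 CPM in wild type, against 69.3 to 86.6 CPM in the knockout. Nearly all of it was Ryr2, the cardiac calcium release channel, with an edgeR log2 fold change of 0.18 ± 0.08 (SE, adjusted p = 0.494). Myl4, the atrial light chain, was the only other one tested, with 0.25 ± 0.19 (adjusted p = 0.672). Its ADCY3∆AT libraries were all above wild type, as for 1392 of the 18114 genes tested. In edgeR 0 of the 2 cardiac markers tested passed, 0 had an unadjusted p under 0.05, and DESeq2 called 0. Nppa, a defining atrial marker, was at 0 in all 6 libraries.

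The associated proteins of the slow fibre were low as well. Ankrd2, a titin-bound stretch-responsive ankyrin repeat protein (ENSMUSG00000025172, chromosome 19, 42036000 to 42045110, plus strand), had 1.49, 0.954 and 2.43 CPM against 0.0219, 0.142 and 0.108 CPM, which was 5.66% of wild type (2.97% to 9.87%). Myoz2, calsarcin 1, which ties calcineurin to the Z-disc of slow and cardiac muscle (ENSMUSG00000028116, chromosome 3, 123006206 to 123035015, minus strand), measured 0.601, 0.431 and 1.51 CPM across wild type. In ADCY3∆AT it had 2, 3 and 0 counts, and its pooled level was 4.23% of wild type (1.35% to 10.1%). For Tnni1, Myl2 and Myoz2 the mean ADCY3∆AT level was under that of 3 counts a library (0.0637 CPM), so the sizes of their falls rest on a handful of reads.

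Myoglobin (Mb, ENSMUSG00000018893, chromosome 15, 77015487 to 77050670, minus strand) did not share this pattern. Its means were 394 ± 35.8 CPM in wild type, against 315 ± 79.4 CPM in the knockout (SD over 3 libraries each). ADCY3∆AT replicate 1 was the low library at 223 CPM, and replicates 2 and 3, at 363 and 359 CPM, lay within the wild-type range of 354 to 424 CPM. The log2 difference of the means was -0.32, and -0.13 without ADCY3∆AT replicate 1. In that same library the other 8 genes summed to 20.0 counts, while Mb had 10212.8.

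Of the 9 genes, edgeR called 0 at an adjusted p of 0.05, beside 0.00552% of all genes tested called lower, and 8 had an unadjusted p under 0.05, beside 5.78%. DESeq2 called 7 as lower, all but Mb and Myh7, beside 0.721%. Without a low-count filter edgeR called 7 of the 9 as lower, beside 0.505% of 30714 genes. The groups did not overlap, with ADCY3∆AT below, for 8 of 9, beside 8.83% of all genes tested. A mean at least 4-fold lower was seen in the same 8, beside 0.53%. Since the genes were chosen by this contrast, and 8 of them passed the low-count filter only through their wild-type libraries, nothing is read from these counts.

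Each slow isoform was then set against its fast counterpart in the same library, so that both values come from the same RNA. Slow myosin was a small part of the adult myosin counts in wild type. Myh7 made up 3.23%, 3.43% and 4.55% of the summed counts of Myh7 and the fast heavy chains Myh1, Myh2 and Myh4 in wild-type replicates 1, 2 and 3. In ADCY3∆AT replicate 2 it was 1.85% (42 of 2270 counts, 95% exact binomial interval 1.34% to 2.49%), and in replicate 3 it was 0.584% (27 of 4622, 0.385% to 0.849%). ADCY3∆AT replicate 1 had 0 of 14 counts, which allows a share of up to 21.4% by a floor of 3 counts, or 23.2% by the exact interval. The share was thus lower in ADCY3∆AT replicates 2 and 3, which also differed from each other beyond counting error, and the counts of replicate 1 left it undetermined.

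The light chain and troponin sets gave a mixed picture. Myl2 was 10.9%, 9.57% and 14.1% of the counts of Myl2 and Mylpf in wild type, against 0.885% and 2.16% in ADCY3∆AT replicates 2 and 3. Tnni1 was 5.31%, 4.94% and 8.35% of Tnni1 and Tnni2 in wild type. In ADCY3∆AT replicate 2 it was 3.23% (4 of 124 counts, 0.886% to 8.05%), an interval that held the shares of wild-type replicates 1 and 2. In ADCY3∆AT replicate 3 it was 0.297% (1 of 337, 0.00751% to 1.64%). Tnnt1 was 2.85%, 3.22% and 6.00% of Tnnt1 and Tnnt3, with 5.13% and 1.70% in ADCY3∆AT replicates 2 and 3. The lower share was therefore not seen in every set: Tnnt1 in ADCY3∆AT replicate 2 lay inside the wild-type range.

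Tnnc1 was 2.68%, 5.25% and 7.06% of Tnnc1 and Tnnc2 in wild type, and 14.9% in ADCY3∆AT replicate 2, above all 3 wild-type libraries, with 2.96% in replicate 3. Myoz2 was 9.07%, 9.64% and 13.6% of Myoz2 and Myoz1 in wild type. In ADCY3∆AT replicate 2 it was 6.67% (3 of 45 counts, 1.40% to 18.3%), an interval that held all 3 wild-type shares. In replicate 3 it was 0 of 98 counts, which allows up to 3.06% by that floor, or 3.69% by the exact interval. ADCY3∆AT replicate 1 held 2 to 15 counts in each of these 6 sets, so its intervals are wide. Even so, 2 of its shares lay above wild type beyond counting error. Tnnc1 made up 10 of 15 counts there (66.7%, 38.4% to 88.2%) and Tnnt1 3 of 5 (60.0%, 14.7% to 94.7%), both with lower limits above the upper limit of every wild-type library. Myoz2 had 2 of 2 counts (lower limit 15.8%), above the wild-type shares but not above the upper limit of wild-type replicate 3, at 16.9%. Tnni1 with 1 of 5 counts (20.0%) was also above the wild-type shares, but its interval (0.505% to 71.6%) spanned the wild-type range. So did that of Myl2, with 1 of 10 counts (0.253% to 44.5%). The slow share was therefore not lower in ADCY3∆AT throughout: the direction differed between sets and between libraries.

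The light chain set of Myl3 and Myl1 held 1070 counts even in ADCY3∆AT replicate 1. Myl3 was 3.34%, 1.49% and 4.63% of Myl3 and Myl1 in wild type, against 0.187%, 0.388% and 0.422% in ADCY3∆AT replicates 1, 2 and 3. Its partner Myl1, a fast light chain, averaged 23.2 CPM in ADCY3∆AT against 40.4 CPM in wild type, a smaller difference than that of any other fast partner.

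**Figure D2:**
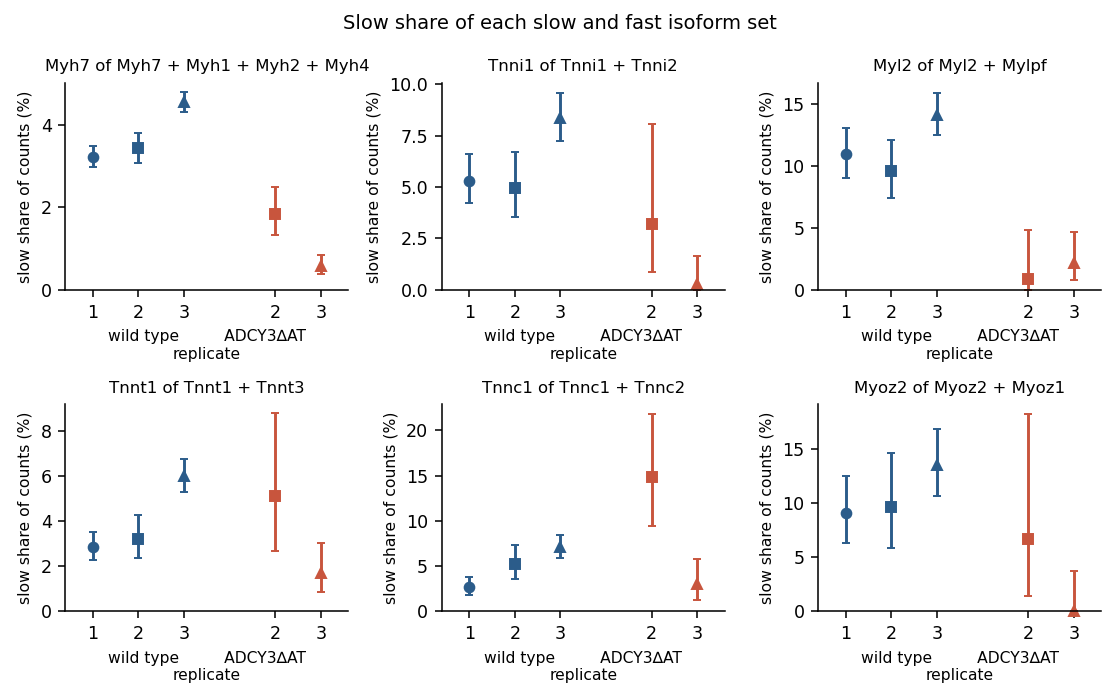
Share of counts held by the slow isoform in 6 sets of slow and fast partners (y axis, percent), for each wild-type library (blue) and ADCY3∆AT replicates 2 and 3 (red), with 95% exact binomial intervals of counting error. ADCY3∆AT replicate 1 is not drawn, since these sets held 2 to 15 counts there with intervals reaching up to 100%. Its Tnnc1 share of 66.7%, Tnnt1 share of 60.0% and Myoz2 share of 100% (2 of 2 counts) lie above everything drawn. The Myh7 share is at 3.23% to 4.55% in wild type, and ADCY3∆AT replicates 2 and 3 are at 1.85% and 0.584%, while the Tnnc1 share of ADCY3∆AT replicate 2 is above all 3 wild-type libraries.

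Summed over all 7 sets and per length, the slow share was 4.54 ± 1.42% in wild type, against 1.67 ± 0.740% in the knockout (SD over 3 libraries each). The libraries stood at 3.78%, 3.65% and 6.18% against 1.64%, 2.42% and 0.943%, so the groups did not overlap. The ADCY3∆AT value depended on Myl1, which held most of the remaining fast counts in replicate 1. Without Myl3 and Myl1 the shares were 41.9%, 4.75% and 1.26% in ADCY3∆AT, beside 3.96% to 6.60% in wild type, and the groups overlapped. These shares are built from the chosen genes and carry no test.

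Fast-fibre transcripts were also lower in ADCY3∆AT, though their order among its libraries was another one. The fast list of 15 genes summed to 610.2, 429.7 and 1164 CPM in wild type, against 24.4, 95.6 and 210.2 CPM in the knockout. In ADCY3∆AT replicate 3 the fast sum was above that of replicate 2 while the slow sum without Mb was below it, at 1.36 against 1.91 CPM. In edgeR 0 of the 15 passed and DESeq2 called 0. All 15 were lower at an unadjusted p under 0.05, beside 5.78% of all genes tested. For 14 every ADCY3∆AT library was below every wild-type one, beside 8.83%. The list was chosen with earlier results of these data known, so nothing is read from these counts or from the fits below. The median log2 difference was -2.86. The lowest p-values in edgeR belonged to Myh2, the heavy chain of fast oxidative fibres (log2 fold change -4.27 ± 0.82, SE, adjusted p = 0.158), the calcium buffer Casq1 (-3.26 ± 0.68, adjusted p = 0.176) and Myh1 (-3.63 ± 0.85, adjusted p = 0.214).

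Sarcomere genes used by both fibre types summed to 1830, 1186 and 3374 CPM in wild type, against 113.8, 299.7 and 504.2 CPM in the knockout. In edgeR 0 of 13 passed, and DESeq2 called 7 as lower, beside 0.721% of all genes. All 13 were lower at an unadjusted p under 0.05, beside 5.78% of all genes tested. Every ADCY3∆AT library was below wild type for all 13, beside 8.83%, and the median log2 difference was -3.07. This list was likewise chosen with earlier results known, so nothing is read from these counts or from the fits that follow. Ldb3 of the Z-disc had an edgeR log2 fold change of -2.26 ± 0.33 (SE, adjusted p = 0.141), Klhl41, a kelch protein that binds nebulin, -2.31 ± 0.34 (adjusted p = 0.141), and Tpm2, a tropomyosin, -1.85 ± 0.29 (adjusted p = 0.141). The interscapular depot lies against muscles of the back. In ADCY3∆AT replicate 1, Myoz1 and Pvalb of the fast list and Ckm and Myot of this list were at 0. A mean at least 4-fold lower in ADCY3∆AT was seen in 10 of these 13 genes and in 13 of the 15 fast genes, beside 0.53% of all genes tested. The smallest difference here was that of Des, the muscle intermediate filament, at -0.49. The part of muscle RNA carried in with the tissue in these values was not tested.

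**Figure D3:**
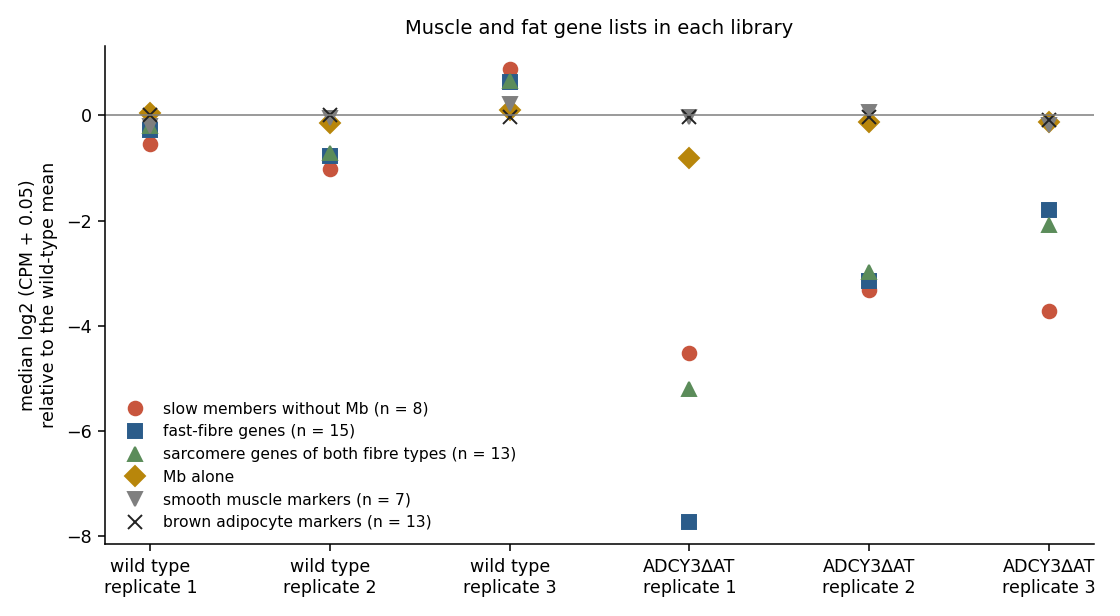
Median over each gene list of log2(CPM + 0.05) relative to the wild-type mean of each gene (y axis), for each of the 6 libraries (x axis). Slow genes without Mb reach -4.52, -3.32 and -3.72 in ADCY3∆AT replicates 1, 2 and 3 and fast genes -7.72, -3.16 and -1.80, while smooth muscle and brown adipocyte lists stay within 0.22 of 0 in all 6 libraries. The added 0.05 CPM limits how far the scarce slow genes can drop.

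Of the other genes tied to slow fibres, some were nearly absent from ADCY3∆AT and others had overlapping groups. Of 10 such genes, 9 were tested and 0 passed in edgeR. At an unadjusted p under 0.05, 4 were lower, beside 5.78% of all genes tested, and DESeq2 called 2 as lower, beside 0.721%. Groups did not overlap for 5 of the 9, with ADCY3∆AT below, beside 8.83%. The median log2 difference over all 10 was -0.59. Csrp3, the muscle LIM protein of slow and cardiac fibres, had 113.3, 52.0 and 147.1 counts in the wild-type libraries, against 0, 9.0 and 0 in the knockout, an edgeR log2 fold change of -5.03 ± 0.81 (SE, adjusted p = 0.147). It passed the low-count filter only through wild type, and the list was chosen with earlier results known, so nothing is read from this fit. Actn2, a Z-disc actinin, had -1.53 ± 0.33 (adjusted p = 0.188) and the M-band protein Myom3 -1.12 ± 0.27 (adjusted p = 0.226). The slow calcium pump Atp2a2, which many cell types use, averaged 425.8 CPM in wild type, against 383.7 CPM in ADCY3∆AT, with groups that did not overlap and an edgeR adjusted p of 0.409. Tpm3, a tropomyosin that non-muscle cells also make, averaged 57.9 CPM against 58.0 CPM, with overlapping groups. Casq2, the slow and cardiac calsequestrin, averaged 2.29 CPM against 3.09 CPM, with overlapping groups.

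Smooth muscle markers summed to 80.8 to 98.9 CPM in wild type, against 86.3 to 97.1 CPM in the knockout. In edgeR 0 of 7 passed, 0 had an unadjusted p under 0.05, and DESeq2 called 0. Of the lowest p-values there, Smtn had an edgeR log2 fold change of 0.15 ± 0.07, Cnn1 -0.29 ± 0.22 and Lmod1 -0.16 ± 0.15 (SE). The ADCY3∆AT libraries of Smtn were all above wild type, as for 1392 of the 18114 genes tested. Satellite cell and myoblast markers, those of muscle stem cells and their offspring, summed to 0.727 to 1.07 CPM in wild type, against 0.306 to 0.624 CPM in the knockout, so these low sums did not overlap between genotypes. Of the 8 only Msc was tested, at 0.329 CPM against 0.323 CPM with overlapping groups. It passed neither in edgeR nor at an unadjusted p under 0.05. Myf6, a myogenic factor of mature fibres, had 11.0, 9.0 and 23.0 counts in the wild-type libraries, against 0, 1.0 and 5.0 in the knockout. Its mean of 0.303 CPM in wild type, against 0.0426 CPM in the knockout, is part of the sums above. Their difference is therefore not one of stem cell markers alone. The satellite cell factor Pax7 had at most 1 count in any library.

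Neuromuscular junction genes, which muscle fibres use under the nerve ending, had 0 of 6 tested past the threshold in edgeR and in DESeq2, and 1 at an unadjusted p under 0.05. Among all 18114 genes tested, 5.78% were lower at that level in edgeR. The 1 junction gene was the acetylcholine receptor subunit Chrna1, with an edgeR log2 fold change of -1.07 ± 0.37 (SE). Its groups did not overlap, with ADCY3∆AT below, as for 8.83% of all genes tested. It had 19.7, 18.5 and 19.6 counts in the wild-type libraries, against 8.2, 12.6 and 5.6 in the knockout. It passed the low-count filter only through wild type. The list was also chosen with earlier results known, so nothing is read from this fit. The receptor-clustering kinase Musk had -0.93 ± 0.66 and its activator Dok7 -0.40 ± 0.32. Of the 6 tested, only these 3 had a negative edgeR log2 fold change, and the median log2 difference over all 8 genes was -0.05.

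Regulators known to set the slow-fibre programme in muscle had at least 3 counts in every library, and their log2 differences lay between -0.53 and 0.14. These are levels of the whole tissue, and the cells they came from were not determined, so they do not give the levels in muscle cells. Of 17 genes, 16 were tested, 0 passed in edgeR or DESeq2, and the median log2 difference was -0.09. At an unadjusted p under 0.05 in edgeR, 1 was lower and 1 was higher, beside 11.0% of all genes tested in either direction. Ppargc1b, a coactivator of mitochondrial genes, had an edgeR log2 fold change of 0.14 ± 0.06 (SE, adjusted p = 0.404) and was the only regulator whose groups did not overlap, with ADCY3∆AT above. Over all genes tested, groups did not overlap in either direction for 16.5%. The homeobox factor Six4 had an edgeR log2 fold change of -0.53 ± 0.21 (adjusted p = 0.411) and Mef2c -0.17 ± 0.08 (adjusted p = 0.478). Ppargc1a, which drives slow fibres when raised in muscle, averaged 97.3 CPM in wild type, against 86.3 CPM in the knockout, with overlapping groups. Sox6, a repressor of slow genes in fast fibres, averaged 65.8 against 62.3 CPM, and its groups overlapped too.

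Among brown adipocyte markers 0 of 13 passed in edgeR, and the median log2 difference was -0.04. At an unadjusted p under 0.05, 2 were lower, beside 5.78% of all genes tested, and DESeq2 called 1 as lower, beside 0.721%. Elovl3, a fatty acid elongase, had an edgeR log2 fold change of -0.38 ± 0.11 (SE), the deiodinase Dio2 -0.75 ± 0.25 and Ebf2 -0.18 ± 0.08. Groups did not overlap, with ADCY3∆AT below, for 4 of the 13, beside 8.83% of all genes tested.

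**Figure D4:**
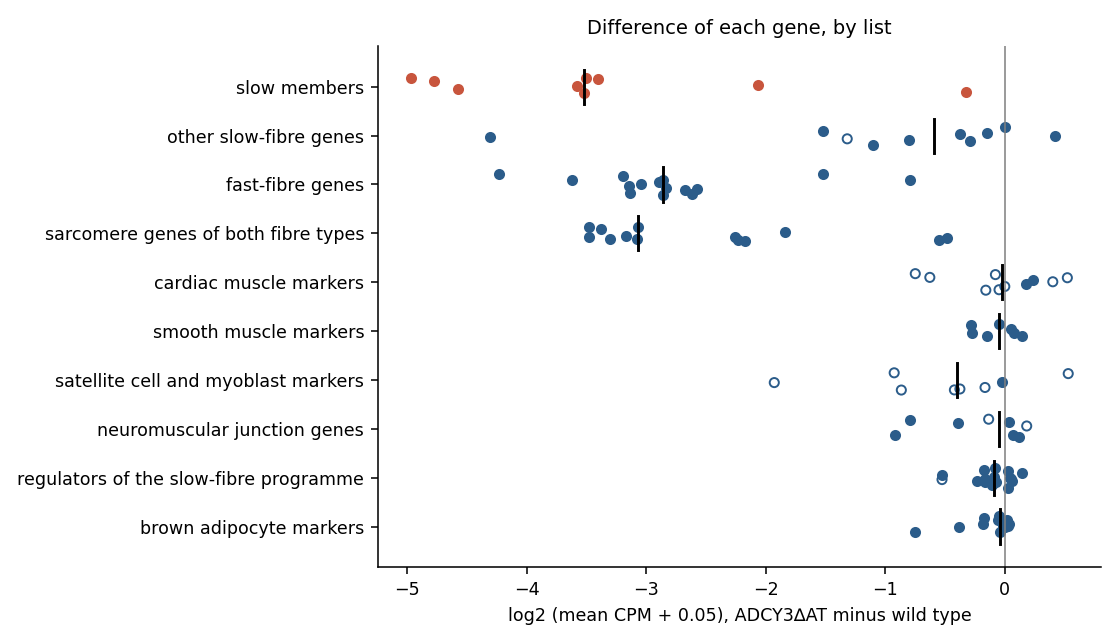
Difference of each listed gene between genotypes, as log2(mean CPM + 0.05) of ADCY3∆AT minus wild type (x axis), by list (y axis). Filled points are genes tested, open points genes below the low-count filter, and black bars are medians over the whole list. Slow genes reach -4.97, Mb lies at -0.32, and the smooth muscle and brown adipocyte lists centre on -0.05 and -0.04.

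The genes whose pattern over the 6 libraries was most like the mean log2 CPM of the 9 slow transcripts were Flnc, Ppm1l, Ldb3, Tpm2, Mfsd14a, Ibtk, Ppp5c, Tacc2, Padi2 and Lipa. Pearson's r ran from 0.994 for Flnc to 0.976 for Lipa, among 11057 candidate genes over 6 libraries. Likeness here includes the difference between genotypes and ignores its size. Flnc, the muscle filamin, measured 16.2, 11.3 and 28.5 CPM across wild type, against 3.61, 5.34 and 5.19 CPM in the knockout. Ppm1l, a protein phosphatase, ranged only from 33.2 CPM in ADCY3∆AT replicate 1 to 37.2 CPM in wild-type replicate 3, and Lipa, the lysosomal acid lipase, from 262.0 to 295.5 CPM in the same libraries.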

How the data were processed

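Total RNA of 6 brown fat libraries (paired-end, NEBNext Ultra II, NovaSeq6000) was analysed. The authors deposited estimated counts per Ensembl gene, not normalised, of which 31.6% of values are not whole. The submitters' processing notes list Salmon, StringTie, edgeR and the build GRCm38, with no roles. Quantification settings, strand use included, were not found in the sources used here. Of 54385 rows, 54131 matched a GENCODE M21 symbol and 254 did not (median 0.0271% of a library). Counts were rounded, filtered with filterByExpr (18114 genes), scaled with TMM and tested with edgeR 4.0.16 in R 4.3.3 (quasi-likelihood F test, genotype only, Benjamini-Hochberg, threshold 0.05), which was checked on simulated data. The labels name no batch. Each SE was derived from the fold change and its F statistic. DESeq2 1.42.0 and limma 3.58.1 were alternatives. With replicates not stated to be separate animals, p-values measure only the spread between these samples.

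The 9 genes, the lists and the naming rule (all members, their fast partners, the 3 lowest p-values of each list, and the 10 genes most like the members with mean log2 CPM of at least 1, prior count 2) were chosen with earlier results of these data known. Adcy3, the unannotated row, Nppa, Myh6, Tnni3, Tnnt2, Atp2a2, Tpm3, Casq2, Myf6, Pax7, Ppargc1a, Sox6 and the genes listed at 0 were named outside that rule, most after their values were seen. Intervals are exact (Clopper-Pearson), at 95%, and the floor is 3 counts. The labels name no molecular identifiers, so intervals cover counting error only.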

Additional observations from a re-analysis of the deposited data

How the results depend on the processing

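The count of genes lower in ADCY3∆AT was 1 in edgeR and stayed at 1 with RLE factors, with library totals alone, with limma voom and with at least 1 CPM in at least 3 libraries, and it rose to 143 with DESeq2 and 155 with no low-count filter. The count higher was 0, and became 89 with DESeq2, 59 with no low-count filter and 1 with limma voom. Leaving out single libraries gave 1 to 39 lower and 0 to 27 higher, with both highest counts reached without ADCY3∆AT replicate 3. With the replicate number as a block 3 genes were lower and 0 higher. Same-numbered libraries did not deviate together (correlations -0.0857, -0.128 and -0.0864), and no library correlated best with its own number. The labels state no pairing, and correlations this small from 3 libraries a group cannot exclude one. The cause of these shifts was not tested. No setting reversed the direction of any of the 9 slow-fibre genes. Their median log2 difference of -3.52 was -1.85 with 0.5 CPM added in place of 0.05, which by construction shrinks genes near 1 CPM, -4.03 with 0.01 CPM, and -3.87 to -2.74 without single libraries. Without Mb, an alternative chosen after seeing the data, it was -3.55. The slow share of isoform sets in ADCY3∆AT was 1.67%, and 16.0% without Myl3 and Myl1, a set also left out after seeing the data. It was 1.29% to 2.03% without single ADCY3∆AT libraries. In ADCY3∆AT, 8 of the 9 genes had 0 to 42 counts a library, which limits the sizes of their falls.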
